A study of Mus musculus with 16 samples.

Results

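The genes described here encode the proteins of the cytosolic ribosome. Members were taken by symbol: *Rpl* or *Rps* followed by a number, with the suffixes that mark a full gene or a paralog, together with *Rpsa*, *Rplp0*, *Rplp1* and *Rplp2*. Symbols of pseudogenes were left out, and a member had to reach at least 1 CPM (counts scaled to library size) in at least 4 of the 16 libraries. Of 88 genes that fit by symbol, 81 were members, 49 of the large and 32 of the small subunit, among 13234 genes that passed the same filter and 54393 in the count table. All 81 reached 1 CPM in all 16 libraries, so the filter favoured no group. The lowest CPM of any member in any library was 9.11, and the highest of any gene left out was 1.36. The 7 genes left out were *Rpl6l*, *Rpl32l*, *Rpl3l*, *Rps4l*, *Rpl39l*, *Rpl10l* and *Rps12l1*. The paralogs of *Rpl10*, *Rpl39*, *Rpl3* and *Rps4x* were thus too low to be tested here.

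The cells were mIMCD3, a mouse epithelial line from the inner medullary collecting duct of an SV40 T-antigen transgenic animal, labelled wild type. They were cultured for 10 days on permeable filters and then given doxycycline (DOX) at 2 µg/mL or its vehicle, dimethyl sulfoxide (DMSO). The 4 groups were DMSO for 3 days, DOX for 3 days, DMSO for 6 days and DOX for 6 days, with 4 replicates each, measured by poly(A) RNA sequencing. The study asked how this common inducer alters the transcriptome of a renal epithelial model. All libraries came from 1 line, and nothing states that replicates were separate cultures, so p-values measure the spread between these samples, which may be technical.

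Every cytosolic ribosome joins a small subunit, which reads the mRNA, to a large subunit, which links the amino acids. Ribosomal protein mRNAs are among the most abundant in growing cells. Most of them start with a cytosine followed by a run of pyrimidines, the terminal oligopyrimidine (TOP) motif, through which the mTOR pathway and the protein Larp1 control their translation and stability. Doxycycline is a tetracycline antibiotic that binds the bacterial ribosome, which the mitochondrial ribosome resembles more than the cytosolic one does. The genes of both ribosomes are therefore set side by side further on.

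The TOP motif was searched on the sense strand of the start sites that RefSeq gives on GRCm38.p6, as a C at the annotated start with at least 4 further bases that are each C or T. A start sequence was found for 61 of the 81 members. The motif stood at an annotated start of 13 of these 61 genes (21.3%), against 3.01% of the 27025 genes with a start sequence. With the first C allowed to lie up to 5 bases on either side of the annotated start, it was found in 29 of the 61 (47.5%) and in 21.2% of all genes. Annotated starts can lie some bases away from those the cells use, so a missing match says only that these letters are not at this position. Windows of 30 bases, from 10 bases before the start, are shown for 4 members with the motif and 3 without it, because both kinds are among the members described further on. Capitals mark the run of pyrimidines that begins at the annotated start.
*Rps6*, chr4:86857348-86857377, minus strand: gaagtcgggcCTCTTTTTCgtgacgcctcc
*Rplp2*, chr7:141447641-141447670, plus strand: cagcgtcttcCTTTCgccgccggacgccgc
*Rpl38*, chr11:114668570-114668599, plus strand: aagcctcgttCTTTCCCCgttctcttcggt
*Rps15a*, chr7:118116128-118116157, minus strand: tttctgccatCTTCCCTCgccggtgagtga
*Rpl4*, chr9:64173377-64173406, plus strand: tttcctgtgggagcagccgggtagagagga
*Rpl12*, chr2:32961702-32961731, plus strand: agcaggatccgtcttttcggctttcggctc
*Rps28*, chr17:33824543-33824572, minus strand: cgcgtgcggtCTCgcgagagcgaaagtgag

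Libraries held between 16933343 and 23960860 estimated counts, and log2 CPM of replicates correlated across genes at 0.981 to 0.992. Epithelial markers were abundant, with *Krt8* at 580 to 1131 CPM, while the 6 principal cell markers of the collecting duct were near 0, with *Aqp2* at most 0.447 and *Aqp3* at most 1.72 CPM. The 6 epithelial markers summed to 2994 to 3429 CPM with DMSO and to 2237 to 2480 CPM with DOX. The 4 leukocyte markers summed to 16.1 to 22.5 CPM with DMSO and 8.11 to 11.96 CPM with DOX, nearly all of it *Cd68*, with *Adgre1* and *Cd3e* at 0 or 1 count. Fibroblast and endothelial markers summed to at most 5.02 and 3.16 CPM. The part of these markers in the results was not tested. One library stood apart within its group. In DOX at 3 days, replicate 1 was the lowest of 4 for the ribosomal protein genes by a wide gap, and the counts and medians at 3 days are therefore also given without it. It was picked by the values of these same genes, and leaving out a group's lowest library raises the group's mean whatever the reason. Values without it show how far the results depend on 1 library and are no separate support for a difference.

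Ribosomal protein mRNAs made up 23.3% to 30.3% of the transcripts in each library. Levels between genes are compared in TPM, transcript counts divided by transcript length and scaled to a fixed total. Over the 8 DMSO libraries the median member stood at 2684 TPM, 71 of the 81 exceeded 1000 TPM, and 55 of the 100 most abundant genes were members. *Rpl41*, which encodes the smallest ribosomal protein, was the highest at 10966 ± 1246 TPM (SD, n = 8). It was followed by *Rps15* at 7675, *Rps29* at 7660, *Rpl32* at 6753 and *Rpl23a* at 6752 TPM. The lowest 5 were *Rpl7l1* at 49.0, *Rps27* at 74.0, *Rpl5* at 144, *Rpl10* at 248 and *Rpl12* at 372 TPM.

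The low values of 4 of these 5 genes share a feature of the counting. *Rps27*, *Rpl5*, *Rpl10* and *Rpl12* each have a near-identical copy elsewhere in the genome that held most of their summed TPM. Copies were sought as sequences matching at 95% identity or more over at least 90% of the length. Of the TPM of *Rps27* and its copies together, 99.5% lay with the copies, chiefly *Rps27rt*. The share was 97.1% for *Rpl5* (*Gm15500*), 93.9% for *Rpl12* (*Gm10275*) and 89.0% for *Rpl10* (*Rpl10-ps3*). In all, 76 members had a copy, 47 had one that passed the filter, and 12 had more than 50% of the summed TPM in copies. Levels of those 12 are uncertain, and their fold changes were also computed on counts summed over each gene and its copies. *Rpl7l1*, with 0.297% in copies, was low in its own right.

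The members' share of all TPM was higher with DOX than with DMSO at both times, but the groups overlapped at 3 days. In DMSO at 3 days the 4 libraries held 28.6%, 26.8%, 25.3% and 24.2%, and in DOX at 3 days 26.9%, 30.3%, 29.9% and 30.1%. In DMSO at 6 days they held 23.6%, 24.7%, 23.3% and 23.4%, and in DOX at 6 days 28.2%, 26.0%, 26.2% and 25.6%. The means were 26.2% ± 1.91 and 29.3% ± 1.61 at 3 days, and 23.8% ± 0.670 and 26.5% ± 1.16 at 6 days (SD, n = 4). Replicate 1 of DOX at 3 days fell below replicate 1 of DMSO at 3 days but above the other DMSO libraries of that time. At 6 days all 4 DOX libraries lay above all 4 DMSO libraries. Without replicate 1 of DOX at 3 days, left out because it was low in these genes, the mean of that group was 30.1% ± 0.194 (SD, n = 3). All 3 remaining libraries then lay above the DMSO libraries of 3 days. With the near-identical copies added, the mean shares were 34.5% and 38.3% at 3 days (39.4% for DOX without replicate 1) and 31.2% and 34.7% at 6 days. Transcripts of the mitochondrial genome held 2.57% ± 0.371 in DMSO and 4.13% ± 0.390 in DOX at 6 days. With these transcripts left out of the total, the members' mean shares in DMSO and DOX were 26.9% and 30.2% at 3 days. At 6 days they were then 24.4% and 27.6%. A share of a total rises when other RNA falls, and more RNA per cell and more cells that hold it cannot be told apart here.

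**Figure D1:**
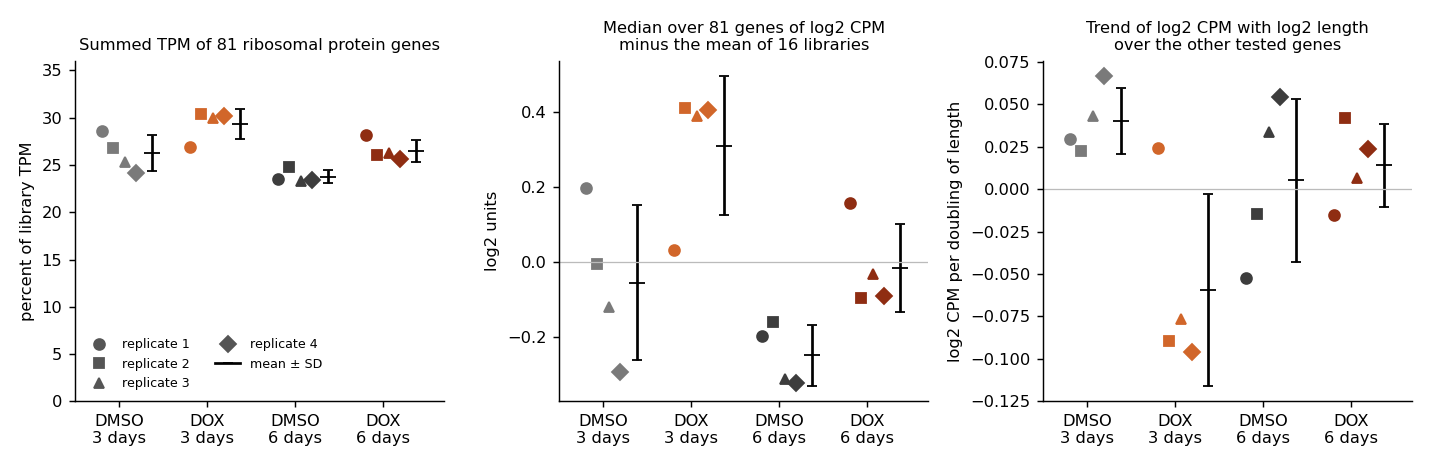
Values for each of the 16 libraries by group, with marker shape for the replicate number and the mean ± SD of 4 libraries beside them: the members' share of TPM (percent), the median over 81 genes of log2 CPM minus the gene's mean over 16 libraries, and the slope of log2 CPM against log2 length over the other tested genes. Replicate 1 of DOX at 3 days lies apart from the other 3 DOX libraries in all panels, at 0.03 against 0.39 to 0.41 in the middle one and at 0.02 against -0.10 to -0.08 in the last.

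After 3 days of DOX the ribosomal protein genes stood higher as a group by a small amount. All 81 had a positive log2 fold change on the CPM scale, with a median of 0.36 (1.28-fold) and a range from 0.08 for *Rpl37a* to 0.71 for *Rpl22l1*, beside a median of 0.0031 over all tested genes. Tested against a threshold of 1.2-fold, 7 members were called higher at an adjusted p under 0.05 and none lower, beside 5.30% of all tested genes called higher. Tested for any change, 71 members were called higher and 0 lower, beside 23.0% of all tested genes called higher. In 11 members all 4 DOX libraries lay above all 4 DMSO libraries, beside 18.8% of all tested genes. Most members thus passed the test for any change but not the threshold. For most of them replicate 1 of DOX overlapped the DMSO libraries, of which replicate 1 was the highest in these genes. Without replicate 1 of DMSO the median was 0.45 and 31 members passed the threshold. The share of all tested genes called in either direction was then 12.2%. Roles, lists and separate groups are given without replicate 1 of DOX only. Without replicate 1 of DOX 79 members were called higher for any change, beside 25.9% of all tested genes. The 3 remaining DOX libraries then lay above all 4 DMSO libraries in 76 members, beside 28.7% of all tested genes.

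The 7 genes called past the threshold at 3 days were 5 core proteins of the large subunit, 1 of the small subunit and the paralog *Rpl22l1*. *Rpl12* (chromosome 2, 32961559 to 32965345, plus strand, GRCm38), whose protein sits at the base of the ribosomal stalk and whose exons overlap *Lrsam1* on the other strand, was at 238, 236, 201 and 188 CPM with DMSO and at 304, 379, 351 and 351 CPM with DOX. On these counts, which leave out its copies, the groups did not overlap, and the log2 fold change was 0.68 ± 0.09 (SE, adjusted p = 0.000272). On counts summed with its copies, which hold most of the reads, the difference of *Rpl12* was 0.51 (adjusted p = 0.0365). The groups of its main copy, *Gm10275*, overlapped, at 1857 to 2786 CPM with DMSO and 2547 to 3413 CPM with DOX (0.49, adjusted p = 0.0538). *Rps20*, a protein of the small subunit's head, was at 1241, 1079, 999.7 and 873 CPM with DMSO and at 1264, 1626, 1621 and 1599.7 CPM with DOX. Its groups were also separate, by the narrow gap between 1241 and 1264 CPM, and the log2 fold change was 0.54 ± 0.10 (adjusted p = 0.0126).

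*Rpl18* (log2 fold change 0.51, adjusted p = 0.0170) and *Rpl3* (0.51, adjusted p = 0.0224), both large subunit proteins, had separate groups too. *Rpl3*, which lies close to the catalytic centre, was at 1606 to 2226 CPM with DMSO and at 2269.9 CPM in replicate 1 and 2781 to 2854 CPM in the other replicates with DOX. *Rplp1*, an acidic stalk protein that contacts translation factors, was at 1183 to 1633 CPM with DMSO and at 1625 to 2159 CPM with DOX, so its groups overlapped in 1 library of each (0.51, adjusted p = 0.0319). *Rpl19* passed at the very edge (0.46, adjusted p = 0.0499955). *Rpl22l1* had the largest fold change and also the largest spread of the 7, with 459, 354, 362 and 280.1 CPM in DMSO and 444, 642, 631 and 659.9 CPM in DOX (0.71 ± 0.19, adjusted p = 0.0481).

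The number called at 3 days depended on single libraries. Without replicate 1 of DOX it was 38, beside 8.15% of all tested genes called higher, and without replicate 1 of DMSO, the DMSO library highest in these genes, it was 31. It fell to 1 without replicate 4 of DMSO, to 3 without replicate 3 of DMSO or replicate 3 of DOX, and to 2 without replicate 2 or 4 of DOX. The median log2 fold change was 0.45 without either replicate 1, and between 0.28 and 0.36 without any other library. *Rpl12*, on counts that leave out its copies, remained called with each of the 8 libraries left out in turn.

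**Figure D2:**
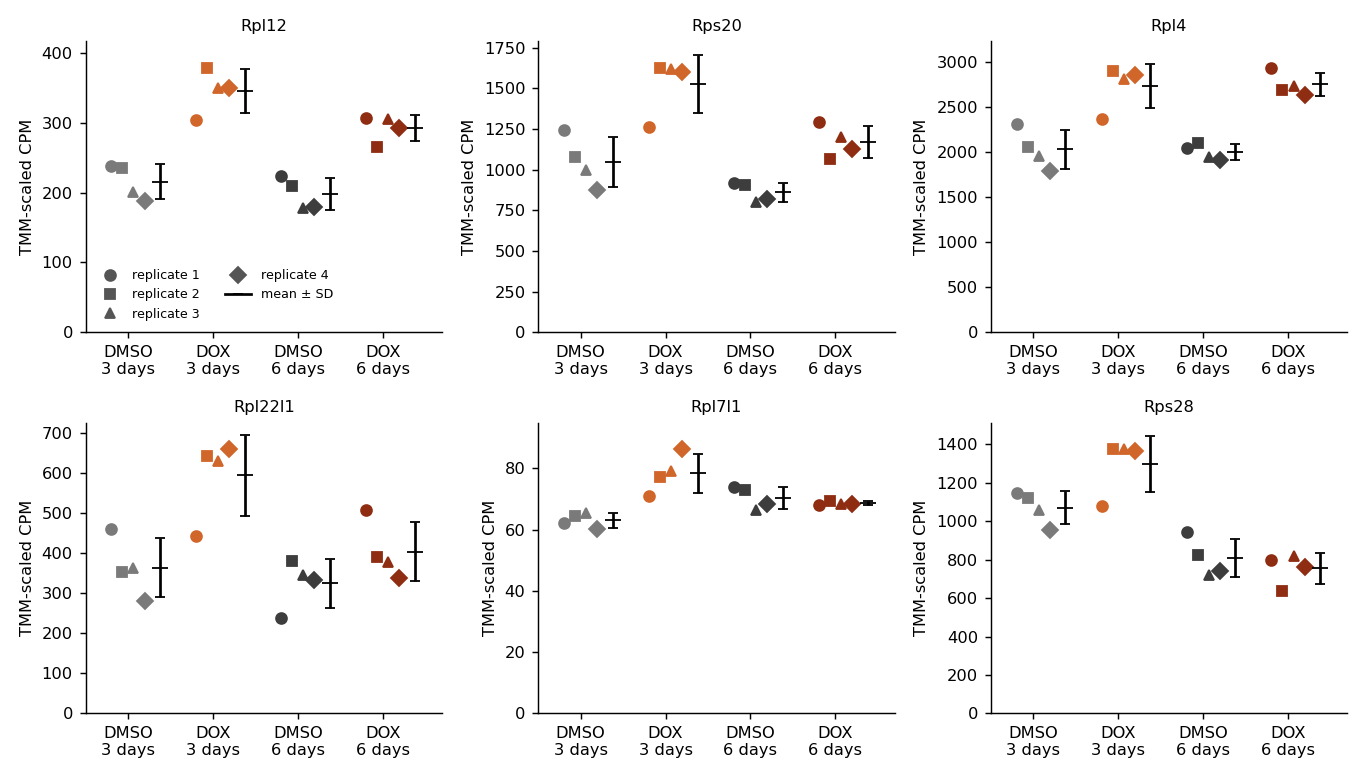
TMM-scaled CPM of 6 genes in all 16 libraries, with the mean ± SD of each group of 4 and axes that start at 0. *Rpl12*, *Rps20* and *Rpl4* are higher with DOX at 6 days in all 4 libraries, *Rpl7l1* is higher with DOX at 3 days and overlaps at 6 days, and *Rps28* is lower at 6 days than at 3 days with either treatment.

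At 6 days the difference between DOX and DMSO on the CPM scale was smaller in the median and less uniform. Of the 81 members, 74 had a positive log2 fold change, with a median of 0.23 (1.17-fold) and a range from -0.33 to 0.56, beside a median of -0.0006 over all tested genes. Past the 1.2-fold threshold 3 were called higher and none lower (beside 10.0% of all tested genes called higher). Tested for any change, 33 were called higher, beside 25.7% of all tested genes called higher. With the 1 member called lower this made 34, beside 50.6% of all tested genes called in either direction. All 4 DOX libraries lay above all 4 DMSO libraries in 40 members, beside 22.1% of all tested genes. The groups were thus more often separate at 6 days than at 3 days while the fold changes were smaller, which did not hold without replicate 1 of DOX at 3 days (76 members separate at 3 days). The SD of the members' share of TPM was smaller at 6 days than at 3 days with either treatment when all libraries were kept. Without that replicate this did not hold for DOX (1.16 against 0.194). Leaving out the library furthest from the others lowers the SD by itself.

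Of the 3 members called at 6 days, *Rpl12* and *Rpl4* are described here, both of the large subunit. *Rpl12* was at 224, 210.1, 178 and 179.9 CPM with DMSO and at 307, 265, 306 and 294 CPM with DOX (log2 fold change 0.56 ± 0.09, adjusted p = 0.00201). Its copy *Gm10275*, which holds most of the reads, had 0.48 (adjusted p = 0.0402), with separate groups. *Rpl4* (chromosome 9, 64173375 to 64178666, plus strand), part of the tunnel through which the new protein leaves, was at 2053, 2103, 1953 and 1917 CPM with DMSO and at 2941, 2697, 2740.0 and 2643 CPM with DOX (0.46 ± 0.08, adjusted p = 0.0204). The lowest DOX library exceeded the highest DMSO library in both genes. *Rps20* (0.44, adjusted p = 0.0532) and *Rps7* (0.44, adjusted p = 0.121) were the next in size and did not pass, and 72.5% of the summed TPM of *Rps7* lay with its copies. Without replicate 1 of DMSO at 6 days 7 members were called, beside 23.2% of all tested genes called in either direction. Without any other library 2 to 4 were called, beside 19.2% to 21.9%. *Rpl4* lost its call without replicate 4 of DMSO or replicate 1 of DOX at 6 days. *Rpl12*, on counts that leave out its copies, kept its call without any 1 of the 8 libraries.

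The 5 lowest members at 6 days were *Rpl37a*, *Rps27l*, *Rps28*, *Rps27* and *Rpl24*, and none of them was called. *Rpl37a* was at 954, 938, 819 and 785 CPM with DMSO and at 767, 613, 705 and 699 CPM with DOX. It was the one member whose DOX libraries all lay below the DMSO libraries, with a log2 fold change of -0.33 ± 0.10, an adjusted p of 0.306 against the threshold and of 0.00882 for any change. *Rps28* (-0.10), *Rps27l* (-0.19), *Rps27* (-0.08) and *Rpl24* (-0.06) overlapped between the groups. The value of *Rps27* had an SE of 0.38 and leaves out its copies, with which 99.5% of the summed TPM lay. The chief copy, *Rps27rt*, had 0.14 at 6 days and was not called.

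**Figure D3:**
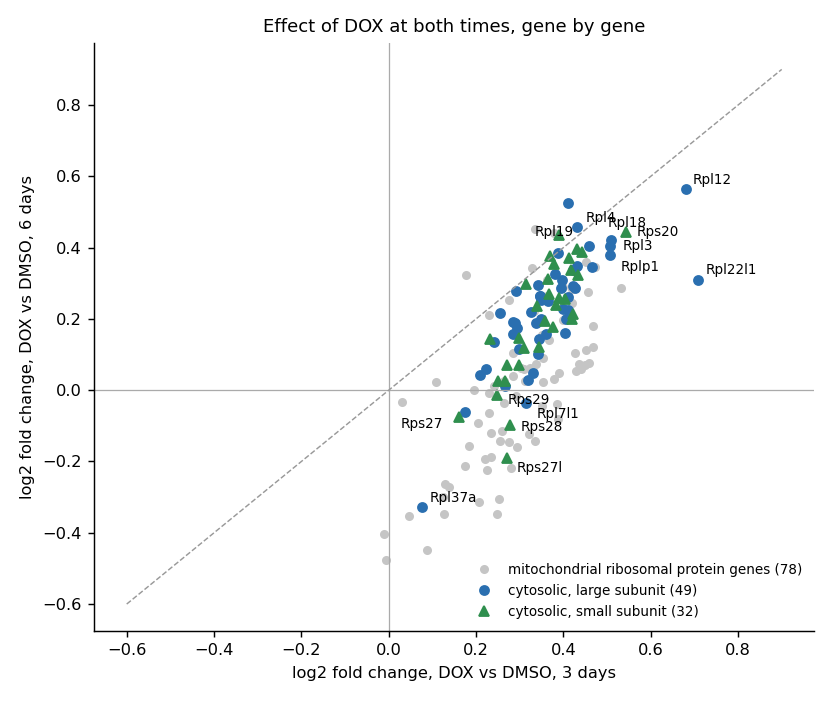
Log2 fold change of DOX against DMSO at 3 days (horizontal) and at 6 days (vertical) for the 81 cytosolic and, in grey, the 78 mitochondrial ribosomal protein genes, with a dashed line of equal effect. All 81 cytosolic genes lie right of 0, and all but 7 lie above 0. The mitochondrial ribosomal protein genes reach further below 0 at 6 days.

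The effect of DOX differed between the times for 1 member. *Rpl7l1* (chromosome 17, 46773907 to 46782672, minus strand), a relative of *Rpl7* found with maturing large subunits, was at 62.2, 64.3, 65.4 and 60.1 CPM with DMSO and at 71.0, 77.2, 79.0 and 86.3 CPM with DOX at 3 days. At 6 days it was at 74.0, 72.9, 66.3 and 68.5 CPM with DMSO and at 68.1, 69.5, 68.5 and 68.5 CPM with DOX. The groups were separate at 3 days and overlapped at 6 days, and the difference of the log2 fold changes was -0.35 ± 0.08 (adjusted p = 0.00731). This was 1 of 81 members, beside 9.58% of all tested genes called lower in the test of the difference. *Rpl37a* (-0.41, adjusted p = 0.0510), *Rps28* (-0.38, adjusted p = 0.0666) and *Rps27l* (-0.46, adjusted p = 0.0714) fell short of the limit. Without replicate 1 of DOX at 3 days 7 members were called lower at 6 days than at 3 days, beside 28.6% of all tested genes called in either direction. Without replicate 1 of DMSO at 3 days or of DOX at 6 days 4 were called, beside 18% and 22.6%. Without replicate 4 of DMSO at 6 days 2 were called, beside 16%. With all libraries kept, 17% of all tested genes were called in either direction.

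Between 3 and 6 days nearly every member had a negative value within both treatments, and some fell past the threshold with DOX. With DMSO 80 of 81 had a negative log2 fold change, with a median of -0.21, but none was called, as none of the tested genes was (0%). At an unadjusted p under 0.05 there were 2 members against the threshold and 36 for any change, beside 1.30% and 17.8% of all tested genes, and DESeq2 also called 0. With DOX 80 of 81 were negative, with a median of -0.33, and 9 were called lower and none higher (beside 2.58% of all tested genes called lower). The 9 were *Rps28*, *Rps29*, *Rps27l*, *Rpl37a*, *Rpl38*, *Rpl27*, *Rps15a*, *Rps25* and *Rps13*. *Rps28* was at 1079.6, 1374, 1376 and 1365 CPM at 3 days and at 798, 637, 821 and 764 CPM at 6 days of DOX (log2 fold change -0.78 ± 0.10, adjusted p = 0.000626). *Rps29*, a zinc-binding protein of the small subunit, was at 1369 to 1766 CPM and then at 845 to 1145 CPM (-0.68, adjusted p = 0.00549). *Rpl38*, a small protein known for a part in the translation of Hox mRNAs, was at 814 to 1074 CPM and then at 539 to 685 CPM (-0.62, adjusted p = 0.00976).

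The groups of these 3 genes were separate between the times with DOX. With DMSO the same 3 genes also had separate groups and log2 fold changes of -0.41, -0.42 and -0.36, none of which was called. Leaving out replicate 1 of DOX at 3 days raised the number called from 9 to 22, beside 6.87% of all tested genes called in either direction. Leaving out any of replicates 2 to 4 of DOX at either time lowered it to 4, beside 2.46% to 2.71%. These 4 were *Rps28*, *Rps29*, *Rpl37a* and *Rpl38*. Cells were sampled after 3 or 6 days of treatment that followed 10 days of growth, so treatment time and age of the culture cannot be told apart in these comparisons.

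The members called lower with time included several of the shortest. Effective lengths, the number of positions from which a fragment can arise, ran from 179 bases for *Rpl38* to 1739 bases for *Rpl7l1*, with a median of 479 over the members and 2346 over all genes that passed the filter. Across the 81 members the log2 fold change between 6 and 3 days correlated with log2 effective length at r = 0.589 in DOX and at r = 0.586 in DMSO. This describes genes of the same libraries, which share depth and fragment lengths and are not independent. The 9 members under 300 bases had a median of -0.49 in DOX and -0.32 in DMSO, and the 14 members of 800 bases or more -0.23 and -0.14. For DOX against DMSO the correlation was 0.179 at 3 days and 0.297 at 6 days. The 9 shortest members had a median of 0.27 at 3 days and 0.03 at 6 days, and the 14 longest 0.36 and 0.26. Without replicate 1 of DOX at 3 days the correlation was 0.118 at 3 days and 0.588 between the times of DOX, and the shortest and longest members had medians of 0.35 and 0.44 at 3 days.

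Length also moved with the libraries among genes that are no members. Over the other tested genes, members' copies left out, the slope of log2 CPM on log2 length was -0.10 to -0.08 in replicates 2 to 4 of DOX at 3 days and 0.02 in replicate 1, against 0.02 to 0.07 in DMSO at 3 days. At 6 days it ran from -0.05 to 0.05 with DMSO and from -0.02 to 0.04 with DOX. The 3 libraries with the highest median of the members were thus those with the steepest trend toward short genes. In DMSO at 6 days, slopes of -0.05, -0.01, 0.03 and 0.05 in replicates 1 to 4 stood beside member medians of -0.20, -0.16, -0.31 and -0.32. In DOX at 6 days, slopes of -0.02, 0.04, 0.01 and 0.02 stood beside medians of 0.16, -0.10, -0.03 and -0.09. The slope on GC content over the same genes, per 10 percentage points, was 0.16, -0.03, -0.05 and -0.14 in replicates 1 to 4 of DMSO at 6 days. In DOX at 6 days it was -0.03, 0.03, 0.11 and 0.14. At 3 days it ran from -0.08 to 0.03 with DMSO and from -0.05 to -0.002 with DOX. The part of either trend in the medians was not tested. Counts were therefore also fitted with an offset for the trend of each library with length and GC content, estimated without the members. In that fit the median log2 fold change at 3 days was 0.22 and at 6 days 0.34, the reverse order of the uncorrected fit. Length and GC content were not fitted separately, so their parts in this reversal were not tested. Members called higher numbered 1 at 3 days, which was *Rpl12*, beside 5.35% of all tested genes. At 6 days they numbered 28, with none lower, beside 23.5% of all tested genes called in either direction. Of the 13234 tested genes 1593 were called higher at 6 days.

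Among the 28 were *Rpl12* (0.67), *Rps20* (0.65) and *Rps24* (0.57), with core proteins of both subunits. The effect of DOX was then larger at 6 days than at 3 days in 9 members, *Rps24* and *Rps20* among them, beside 5.39% of all tested genes, and smaller in 1, again *Rpl7l1* (-0.29), with a median difference of 0.11 in place of -0.13. Between 6 and 3 days of DOX only *Rps28* remained called (-0.45, adjusted p = 0.00890), beside 2.49% of all tested genes called in either direction. The direction of the median was positive at both times in both fits. Which time had the larger effect, and how many members passed, changed with the correction. An offset fitted on real differences can also remove them, and the cause of the trends was not tested. With the same correction and without replicate 1 of DOX at 3 days, 6 members were called higher at 3 days, beside 5.70% of all tested genes, with a median of 0.24. The median difference between the times was then 0.08, with 7 members called higher and 1 lower.

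**Figure D4:**
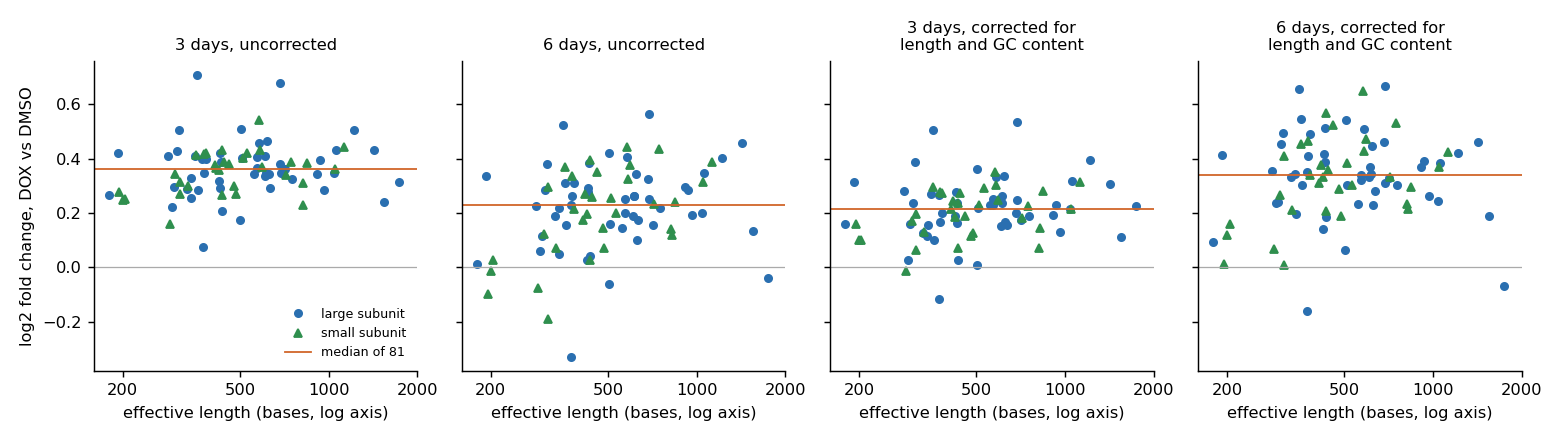
Log2 fold change of DOX against DMSO for the 81 members against effective length on a log axis, at 3 and 6 days, before and after correction for length and GC content fitted without the members. The median line drops from 0.36 to 0.22 at 3 days and rises from 0.23 to 0.34 at 6 days.

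By role, the medians of both subunits were close. At 3 days the median log2 fold change was 0.35 over the 49 large and 0.37 over the 32 small subunit genes, with 6 and 1 called. At 6 days it was 0.23 and 0.22, with 3 and 0 called. The shares of all tested genes called higher were 5.30% at 3 days and 10.0% at 6 days. Summed TPM of the large subunit was 1.40 ± 0.016 times that of the small in DMSO and 1.43 ± 0.012 times in DOX at 3 days, and 1.43 ± 0.020 and 1.48 ± 0.021 times at 6 days (SD, n = 4). At 3 days DOX ran from 1.417 to 1.444 and DMSO from 1.382 to 1.418, and at 6 days DOX from 1.457 to 1.501 and DMSO from 1.4204 to 1.463. The groups overlapped by a narrow margin at each time. The subunit medians at 3 days were 0.43 and 0.45 without replicate 1 of DOX, with 24 and 14 called, beside 8.15% of all tested genes called higher. The ratio in DOX was then 1.42 ± 0.0025 (SD, n = 3).

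Of the stalk genes *Rplp0*, *Rplp1* and *Rplp2*, *Rplp1* alone was called, at 3 days. *Rplp0*, often used as a reference gene in quantitative PCR, had a log2 fold change of 0.43 at 3 days (adjusted p = 0.126) and of 0.35 at 6 days (adjusted p = 0.269). *Rplp2* had 0.40 and 0.23. *Rpsa*, also known as a precursor of a laminin receptor, had 0.44 (adjusted p = 0.0837) and 0.39 (adjusted p = 0.139). None of these was called, and all values were positive. *Rps6*, the substrate of the S6 kinases, was at 1556 to 2291 CPM with DMSO and 1941 to 2544 CPM with DOX at 3 days, and at 1545 to 1738.5 and 1738.7 to 2211 CPM at 6 days. Its groups overlapped at 3 days and lay just apart at 6 days, with 0.34 and 0.24 in log2. *Rpl5* and *Rpl11*, which with the 5S rRNA restrain Mdm2 when ribosome assembly fails, had 0.24 and 0.29 at 3 days and 0.13 and 0.18 at 6 days. On counts summed with its copies, *Rpl5* had 0.42 and 0.35, not called. *Rps27a*, made as a fusion with ubiquitin, had 0.40 and 0.25.

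Members with and without the TOP motif at an annotated start had close medians. The 13 genes had a median log2 fold change of 0.37 at 3 days and 0.24 at 6 days, and the 48 other genes with a start sequence 0.35 and 0.21. None of the 13 and 4 of the 48 were called at 3 days, and none and 2 at 6 days. These counts stand beside 5.30% and 10.0% of all tested genes called higher. The medians at 3 days were 0.46 and 0.44 without replicate 1 of DOX. *Rps6*, *Rplp2*, *Rpl38* and *Rps15a*, whose starts are shown above, carry the run of pyrimidines and were not called with DOX at either time. *Rpl12* and *Rpl4*, which were called, have no such run at the start listed, although *Rpl12* has one within 5 bases of it and *Rpl4* has none in that range. *Rps28*, also shown without the motif, was not called with DOX at either time.

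The 4 paralogs that passed the filter are described one by one. *Rpl22l1*, which can replace *Rpl22*, stood at 0.554 of the TPM of *Rpl22* in DMSO and 0.780 in DOX at 3 days (0.801 without replicate 1 of DOX), and at 0.572 and 0.684 at 6 days. *Rpl22* itself had log2 fold changes of 0.28 and 0.16 and was not called. *Rpl36al* stood at 0.520, 0.561, 0.573 and 0.570 of *Rpl36a* in DMSO and DOX at 3 days and DMSO and DOX at 6 days. *Rpl7l1* stood at 0.016 to 0.020 of *Rpl7* in every group. *Rps27l*, a known target of p53, was at 146 to 192 CPM with DMSO and 154 to 227 CPM with DOX at 3 days, and at 135 to 164 and 114 to 155 CPM at 6 days. Its log2 fold change was 0.27 at 3 days and -0.19 at 6 days, neither called, and no ratio to *Rps27* is given since nearly all reads of *Rps27* lay with its copy. Over the 4 paralogs the median at 6 days was 0.01, against 0.24 over the 77 other members.

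Genes that make or regulate ribosomes were taken from lists, and medians are given beside those of the members, 0.36 and 0.23 at 3 and 6 days. Translation factors with TOP mRNAs had medians of 0.35 and 0.17, close to the members at 3 days. Of 17, 3 were called higher at 3 days and 2 at 6 days, none lower, beside 5.30% and 10.0% of all tested genes called higher. At 3 days 8 were called without replicate 1 of DOX, beside 8.15% of all tested genes called higher. With the correction for length and GC content 3 were called higher at 3 days, and 5 higher and 1 lower at 6 days, with medians of 0.23 and 0.18. Of the 13234 tested genes that fit called 708 higher at 3 days, and 1593 higher and 1514 lower at 6 days. *Eef2*, the elongation factor that moves the ribosome along the mRNA, had log2 fold changes of 0.46 (adjusted p = 0.0195) and 0.65 (adjusted p = 6.66e-05). *Npm1*, a nucleolar chaperone, had 0.64 (adjusted p = 0.00209) and 0.41 (adjusted p = 0.0926), *Eef1g* 0.48 and 0.40 with only the first called, and *Pabpc1* 0.40 and 0.41 with only the second called.

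Ribosome biogenesis genes had medians of 0.30 and 0.25 over 51 genes at 3 and 6 days. At 3 days 11 were called higher and at 6 days 9, none lower at either time, beside the same 5.30% and 10.0% of all tested genes. At 3 days 19 were called without replicate 1 of DOX, beside 8.15% of all tested genes called higher. *Mybbp1a*, a nucleolar protein of rRNA synthesis, went from 306 to 418 CPM at 3 days and from 330 to 570.2 CPM at 6 days (0.45, adjusted p = 0.00421, and 0.79, adjusted p = 1.76e-08). *Rrp9*, which binds the U3 snoRNA, had 0.68 and 0.77, *Rrp12* 0.38 and 0.67 with only the second called, and *Taf1b*, a subunit of the RNA polymerase I factor SL1, 0.63 and 0.46. With the correction for length and GC content 13 and 16 biogenesis genes were called higher. Of the 13234 tested genes that fit called 708 higher at 3 days and 1593 at 6 days.

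Regulators of the mTOR pathway and of ribosomal protein mRNA translation were mixed. Of 19, 2 were called higher and 1 lower at 3 days, and 3 higher and 1 lower at 6 days, with medians of -0.08 and 0.07. Over all tested genes 5.30% were called higher and 7.22% lower at 3 days, and 10.0% and 11.6% at 6 days. With the correction for length and GC content the median at 3 days turned positive, at 0.10, and was 0.12 at 6 days. In that fit 2 were called higher and 1 lower at 3 days and 3 higher at 6 days. Of the 13234 tested genes it called 708 higher and 714 lower at 3 days, and 1593 higher and 1514 lower at 6 days. The uncorrected median at 3 days was -0.14 without replicate 1 of DOX, with 2 called higher and 1 lower. *Deptor*, an inhibitor bound to mTOR, fell at both times (-0.69, adjusted p = 0.000757, and -0.54, adjusted p = 0.00871). *Sesn2*, a stress-induced inhibitor of mTOR complex 1, rose at 6 days (0.73, adjusted p = 6.89e-05) and had 0.30 at 3 days (adjusted p = 0.501). *Eef2k*, the kinase that inhibits *Eef2*, rose at 6 days (0.47, adjusted p = 0.00597), and *Eif4ebp1*, a repressor of cap-dependent translation, rose at 3 days (0.47, adjusted p = 0.00964).

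The 78 mitochondrial ribosomal protein genes had a median of 0.31 at 3 days and 0.03 at 6 days. At 3 days 12 were called higher and none lower, and at 6 days 2 higher and 3 lower. Among all tested genes 5.30% were called higher and 7.22% lower at 3 days, and 10.0% and 11.6% at 6 days. The correction for length and GC content left 4 called higher at 3 days and gave 6 higher and 2 lower at 6 days, with medians of 0.18 and 0.11. Of the 13234 tested genes that fit called 708 higher and 714 lower at 3 days, and 1593 higher and 1514 lower at 6 days. Leaving out replicate 1 of DOX at 3 days gave 29 called higher at 3 days without the correction and 6 with it. The shares of all tested genes called higher were then 8.15% and 5.70%. The test of the difference between times called 36 of the 78 lower at 6 days than at 3 days, against 1 of the 81 cytosolic genes. It called 9.58% of all tested genes lower. Without replicate 1 of DOX at 3 days it called 59 and 7 lower, beside 28.6% of all tested genes called in either direction. With the correction for length and GC content it called 13 of 78 lower and 2 higher, against 1 lower and 9 higher of the cytosolic genes. The share of all tested genes called in either direction was then 12.9%. *Mrps28* (0.53 and 0.29), *Mrpl2* (0.47 and 0.35) and *Mrpl32* (0.47 and 0.12) were called at 3 days only, and *Mrps21* (-0.01 and -0.48) fell at 6 days (adjusted p = 0.0162).

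**Figure D5:**
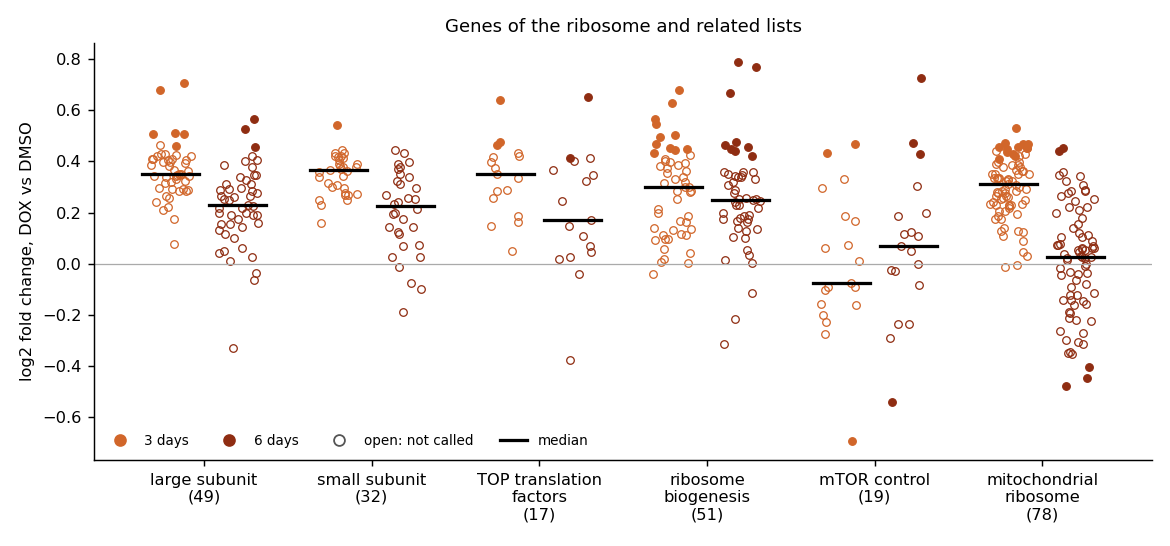
Log2 fold change of DOX against DMSO at 3 and 6 days for each gene of 6 groups, with the number of genes under each name, filled points for genes called past the 1.2-fold threshold and a bar at the median. Cytosolic genes and biogenesis genes lie mostly above 0 at both times, and mitochondrial ribosomal protein genes are spread around 0 at 6 days.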

How the data were processed

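Poly(A) RNA of 16 libraries (4 groups of 4) was analysed from 2 tables of the authors. The authors aligned paired reads of 75 bases with STAR to GRCm38.p6 and quantified them with salmon, listed as version 0.14.10 in the submitters' notes. The deposited estimated counts are not normalized. The deposited TPM values are divided by length and scaled to a fixed total per library, and the table lists 53354 genes. Read strand settings of the counting are not given in the sources used here, and 39 members overlap an exon of another gene.

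Estimated counts were rounded, 13234 genes reached 1 CPM in 4 or more libraries and were tested, and edgeR 4.0.16 (R 4.3.3) fitted a robust quasi-likelihood model over all 16 libraries with TMM scaling. Contrasts were tested by glmTreat at 1.2-fold, and the difference between times by glmQLFTest without a threshold, both two-sided. Benjamini-Hochberg adjustment ran over all tested genes, with a limit of 0.05. SE is the log2 fold change over the square root of F. The test of DOX against DMSO at 1.2-fold followed the study's methods, and the other contrasts were added. Counting error is small here, since the lowest count of a member in any library was 171, and a count of 3 equals 0.125 to 0.177 CPM.

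Members, lists and tests were chosen with earlier results of these data known. Named members are those called with DOX at either time or between times, the 5 most positive and 5 most negative at 6 days, the 5 highest and 5 lowest by TPM, and fixed stalk, 5S particle, ubiquitin fusion and paralog genes. From other lists at most 4 called genes each are named. Genes called between 6 and 3 days of DOX, and under the length correction, were named after their values were seen. Copies and lengths came from GENCODE M21, which holds all 54393 identifiers, and start sequences from RefSeq. Alternatives included RLE scaling, DESeq2 1.42.0, limma 3.58.1 on log2(TPM + 1) and log2(TPM + 0.1), other filters, a replicate block, splines of 5 degrees of freedom for length and GC content, sums over copies, and each library left out. Values of some genes are not reported here. The calculations were tested on simulated counts.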

Additional observations from a re-analysis of the deposited data

Results flagged for a closer look

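Within groups of 4, Dixon's test at the 95% level set apart replicate 1 of DOX at 3 days for most ribosomal protein genes, and chance sets apart about 1 in 20 groups. It was the lowest library of its group by this test in 66 of 81 members. Its share of TPM was 26.9%, its median log2 deviation from the 16-library means 0.0329, and its CPM was 1990.5 for *Rpl19*, 444 for *Rpl22l1*, 2269.9 for *Rpl3*, 2374 for *Rpl4*, 1625 for *Rplp1* and 1264 for *Rps20*. Replicate 2 of DMSO at 6 days was set apart as the highest in share of TPM (24.7%), and replicate 1 of DOX at 6 days as the highest for *Rpl3* (2589.9 CPM). The latter was the highest by this test in 11 of 81 members, and replicate 2 of DMSO at 6 days in 4. Replicate 3 of DMSO at 6 days was set apart as the lowest in 1 member and replicate 2 of DOX at 6 days in 2. What sets these libraries apart was not tested. The numbers of members called and their medians without replicate 1 of DOX at 3 days are given with the comparisons.

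Only the members and the genes named from the other lists were looked up here for a DOX effect that differed between 6 and 3 days. The test of the difference itself called *Rpl7l1* (-0.35 in log2, 6 minus 3 days, adjusted p = 0.00731), *Mybbp1a* (0.34, adjusted p = 0.00656), *Sesn2* (0.43, adjusted p = 0.0283), *Eef2k* (0.40, adjusted p = 0.0125) and *Mrps21* (-0.47, adjusted p = 0.0140). It called 17% of all tested genes in either direction, among them further genes of the lists that are not named.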

How the results depend on the processing

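Medians kept their sign for DOX against DMSO at both times under every alternative run, and no called member changed direction. The numbers of members called (7 at 3 days, 3 at 6 days, 9 between 6 and 3 days of DOX, and 1 for the difference between times) depended on the settings, and where no cause is named the cause was not tested. Those 4 numbers stand beside 12.5%, 21.6%, 3.94% and 17% of all tested genes called in either direction. In that order of comparisons, DESeq2 called 2, 2, 5 and 4, and limma on either TPM scale 1, 3, 1 and 0, with a median of 0.17 at 3 days where the median over all tested genes was -0.15 on log2(TPM + 1). Without a fold threshold 71, 34 and 57 were called in the first 3 comparisons. With only the groups compared 4 and 5 were called at 3 and 6 days, a setting not run for the difference between times. Without a filter 11 were called at 6 days and 4 for the difference, which was 3 with CPM of at least 1 in all libraries, 2 with RLE scaling and 2 on counts summed over copies. The length and GC correction gave 1, 27, 1 and 10, fitted without the members 1, 28, 1 and 10, and with a replicate block 2, 27, 1 and 8. Together with summed copies, an alternative chosen after the data were seen, it gave 1, 32, 1 and 14, and without replicate 1 of DOX at 3 days, also chosen then, 6 at 3 days, 1 between the times of DOX and 8 for the difference. TMM without members and copies, also chosen then, left 7, 3, 9 and 1. Leaving out 1 library gave 1 to 38 at 3 days, 2 to 7 at 6 days, 4 to 22 between the times of DOX, and 1 to 7 for the difference. The share of estimated counts in place of TPM gave DOX to DMSO ratios of 1.241 and 1.184.

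A replicate block alone gave 5, 3, 5 and 1 calls. Equal replicate numbers did not pair the libraries, with mean correlations of their deviations between -0.122 and 0.122 over the 6 pairs of groups. Between 6 and 3 days of DMSO no member was called under any alternative run.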
